A study of Homo sapiens with 16 samples.

Results

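Cytosolic and mitochondrial chaperones were described in 2 established human cell lines after knockdown of HNRNPH1, which encodes an RNA-binding regulator of pre-mRNA splicing. The members are 53 named genes of 61906 genes in the deposited tables, taken by symbol and summed over their 564 listed transcripts. They comprise 9 HSP70 and HSP110 genes, 3 HSP90 genes, 2 genes of the HSP60 and HSP10 pair, 2 small heat shock protein genes, 8 subunits of the CCT chaperonin, 17 HSP40 (DNAJ) genes, 10 co-chaperones and 2 heat shock factors. HEK-293T is a line of embryonic kidney origin that expresses SV40 large T antigen. HT-1080 is a fibrosarcoma line. Cells of each line were transfected with 20 nM of an siRNA against HNRNPH1 (siHNRNPH1) or of a negative control siRNA (siNegative), and RNA was taken 48 h later. Each of the 4 groups had 3 short-read RNA-seq libraries, which the labels call biological replicates, so 12 libraries in all. The labels name no siRNA sequence and no rescue, so an effect of HNRNPH1 loss and an effect of this siRNA on other targets cannot be told apart.

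Chaperones bind unfolded or partly folded proteins and keep them from aggregating. HSP70 proteins bind and release clients in an ATP cycle that HSP40 proteins start and nucleotide exchange factors, such as BAG proteins and HSP110, reset. HSP90 acts later, on clients such as kinases and steroid receptors, with co-chaperones that load clients or tune its ATPase. CCT folds actin and tubulin in a closed chamber, and HSPD1 with HSPE1 forms the corresponding chamber in mitochondria. The heat shock factor HSF1 raises transcription of many of these genes under proteotoxic stress by binding heat shock elements, which are inverted repeats of the unit GAA.

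Heat shock element letters are shown for members whose levels the results below turn on, or whose promoters hold the longest match before the start (that of DNAJA1 lies after it). RefSeq windows (GRCh38.p14) from 250 bases before to 50 bases after the start were matched by symbol for 47 members, with 1 window per gene. That window was the first listed for the symbol and need not be at the start of the most used transcript. Other starts were not searched, so the lack of a match covers that window only. The 2-unit motif GAANNTTC, which is its own reverse complement, was in 9 of 47 member windows (19.1%) and in 6.87% of 27305 gene windows. The 3-unit motif GAANNTTCNNGAA, searched on both strands and containing the shorter one, was in 4 of 47 (8.51%) and in 0.487%. The 9 members were BAG2, CHORDC1, DNAJA1, DNAJB6, HSPA1A, HSPA1B, HSPA8, HSPB1 and TCP1. Those with 3 units were CHORDC1, DNAJA1, DNAJB6 and HSPA8. Each sequence here is 30 bases on the strand of the gene, with the match in capitals. For CHORDC1 and HSPA8, which hold 3 and 2 matches of 3 units, the match farthest upstream is shown. The places are chr6:31815426-31815455 (plus strand) for HSPA1A, chr6:31827622-31827651 (plus) for HSPA1B, chr7:157336865-157336894 (plus) for DNAJB6, chr11:123062345-123062374 (minus) for HSPA8 and chr11:90223088-90223117 (minus) for CHORDC1.
HSPA1A: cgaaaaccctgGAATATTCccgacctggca
HSPA1B: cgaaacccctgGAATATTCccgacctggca
DNAJB6: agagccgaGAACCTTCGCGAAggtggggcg
HSPA8: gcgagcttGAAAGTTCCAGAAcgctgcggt
CHORDC1: cgcgaccgGAAAATTCGCGAAggttcctga
HSPA1A and HSPA1B carried the same letters in the match, at bases 106 to 99 and 105 to 98 before the start, and their 250 upstream bases aligned at 93.6% identity. A match describes the letters of a window and is no evidence of binding.

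HEK-293T libraries held 107.75 to 121.03 M (mega) expected counts each, and HT-1080 libraries, which were shallower, held 27.30 to 32.65 M. HEK-293T siHNRNPH1 replicate 1 stood apart, with a Pearson r of 0.929 and 0.922 to the other replicates over 14416 genes, against 0.998 between those replicates. The HEK-293T log2 fold change of each member described by library is therefore given with and without it. HT-1080 siNegative replicate 2 stood slightly apart (r of 0.995 over 13786 genes, against 0.998 between the other replicates of its group). Markers chosen for HT-1080 (CD44, CAV1, TGFBI and THY1) summed to 3272 to 3512 CPM (the count relative to the library's total, on 1 scale for all libraries) under siNegative and 2178 to 2253 CPM under siHNRNPH1 in HT-1080, and to 8.12 to 8.55 CPM in HEK-293T. The genes went different ways in HT-1080: mean CD44 was 3037 and then 1873 CPM, CAV1 265 and then 161 CPM, TGFBI 125 and then 182 CPM, and THY1 was near 0. HEK-293T markers (LIN28B, NEFM and CKB) summed to 823.3 to 876.6 CPM under siNegative and 1116 to 1571 CPM under siHNRNPH1 in HEK-293T, and to 22.4 to 28.9 CPM in HT-1080. In HEK-293T siHNRNPH1 replicate 1, CKB was at 1108 CPM and LIN28B at 65.7 CPM, against 430 to 512 CPM and 197 to 203 CPM in the other replicates. The part of these marker shifts in the results below was not tested. Blood cell markers (PTPRC and CD3E) summed to at most 0.0186 CPM in any library. HNRNPH1 itself was at 1107, 1105 and 1121 CPM in the HEK-293T siNegative libraries and at 234, 376 and 394 CPM in the siHNRNPH1 libraries. In HT-1080 it was at 635, 606 and 617 CPM against 231.5, 231 and 228 CPM. HNRNPH1 fell by 1.76 in HEK-293T (log2 fold change, SE 0.202, edgeR BH-adjusted p = 0.00939), where the value without replicate 1 was -1.58. The HT-1080 value was -1.49 (SE 0.0418, edgeR BH-adjusted p = 6.76e-09).

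The 2 lines gave different pictures. In HEK-293T the inducible HSP70 genes HSPA1A and HSPA1B rose more than 2-fold, and no other member passed the test with all libraries. In HT-1080 most members fell by less than 2-fold, among them 7 of 8 CCT subunits, HSPA8, HSP90AB1 and the HSP90 co-chaperones STIP1 and PTGES3, while HSPA1A rose slightly. Testing used edgeR's quasi-likelihood test on counts summed per gene, within a line and over all genes, with siHNRNPH1 against siNegative and a Benjamini-Hochberg (BH) adjusted p under 0.05 as the threshold. Of the 53 members, 52 passed the filter on low counts in each line. DNAJA4, an HSP40 gene, did not, with at most 4 counts in any library. In HEK-293T, 2 of 52 members were called, both higher, where 10% of the 19966 genes tested were called (5.12% higher and 4.88% lower). Both changed at least 2-fold, and 5.87% of all genes were called with a change of that size. At an unadjusted p under 0.05 there were 6 members, and DESeq2 called 5 (the HSPA1 pair, DNAJB1, DNAJB6 and DNAJC7) where it called 19.9% of all genes. The share of all genes at an unadjusted p under 0.05 was not worked out, here or below, so unadjusted counts have no background beside them. The median log2 fold change was 0.019 over the members and 0.024 over all genes.

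Without replicate 1, the HEK-293T fit called 38 of 52 members, 14 higher and 24 lower, where it called 61.8% of 20329 genes (30.5% higher and 31.3% lower). In HT-1080, 38 of 52 were called, 7 higher and 31 lower, where 65.3% of 16145 genes were called (32.7% higher and 32.6% lower). No HT-1080 member changed 2-fold or more, whereas 15.6% of all genes were called with a change of that size. The HT-1080 median was -0.21 over the members and 0.0056 over all genes, and the members ran from -0.93 (DNAJC9) to 0.37 (DNAJB4). With scaling by library size alone, 39 HT-1080 members were called (65.2% of all genes), 12 higher and 27 lower, and 34 of the 38 remained (CCT3, DNAJC5, HSF1 and HSF2 did not). Without siNegative replicate 2, 47 were called (70.4% of all genes), the 9 added being HSPA1B, HSPA4, BAG1, FKBP4 and STUB1, higher, and CCT7, HSPA13, DNAJA1 and DNAJB1, lower. Without siHNRNPH1 replicate 1, 33 were called (57.8% of all genes), and CCT3, DNAJC3, DNAJC5, HSF1 and HSF2 were lost. In a fit of all 12 libraries, which share 1 estimate of the spread, 19 of the 38 remained, where 29.3% of all genes were called. The 19 lost were HSPA1A, HSPH1, TRAP1, HSPB11, CCT2 to CCT5, AHSA1, CDC37, CHORDC1, DNAJB2, DNAJB4, DNAJB12, DNAJC3, DNAJC5, DNAJC7 and both heat shock factors. On CPM, the groups did not overlap for 21 of 52 members in HEK-293T (43.7% of all genes) and for 44 of 52 in HT-1080 (70.6% of all genes). The 44 were 14 with higher siHNRNPH1 libraries (39.9% of all genes) and 30 with lower ones (30.6%). A change in CPM is a change in the share of a library, and in bulk RNA fewer expressing cells and less RNA per cell cannot be told apart.

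**Figure D1:**
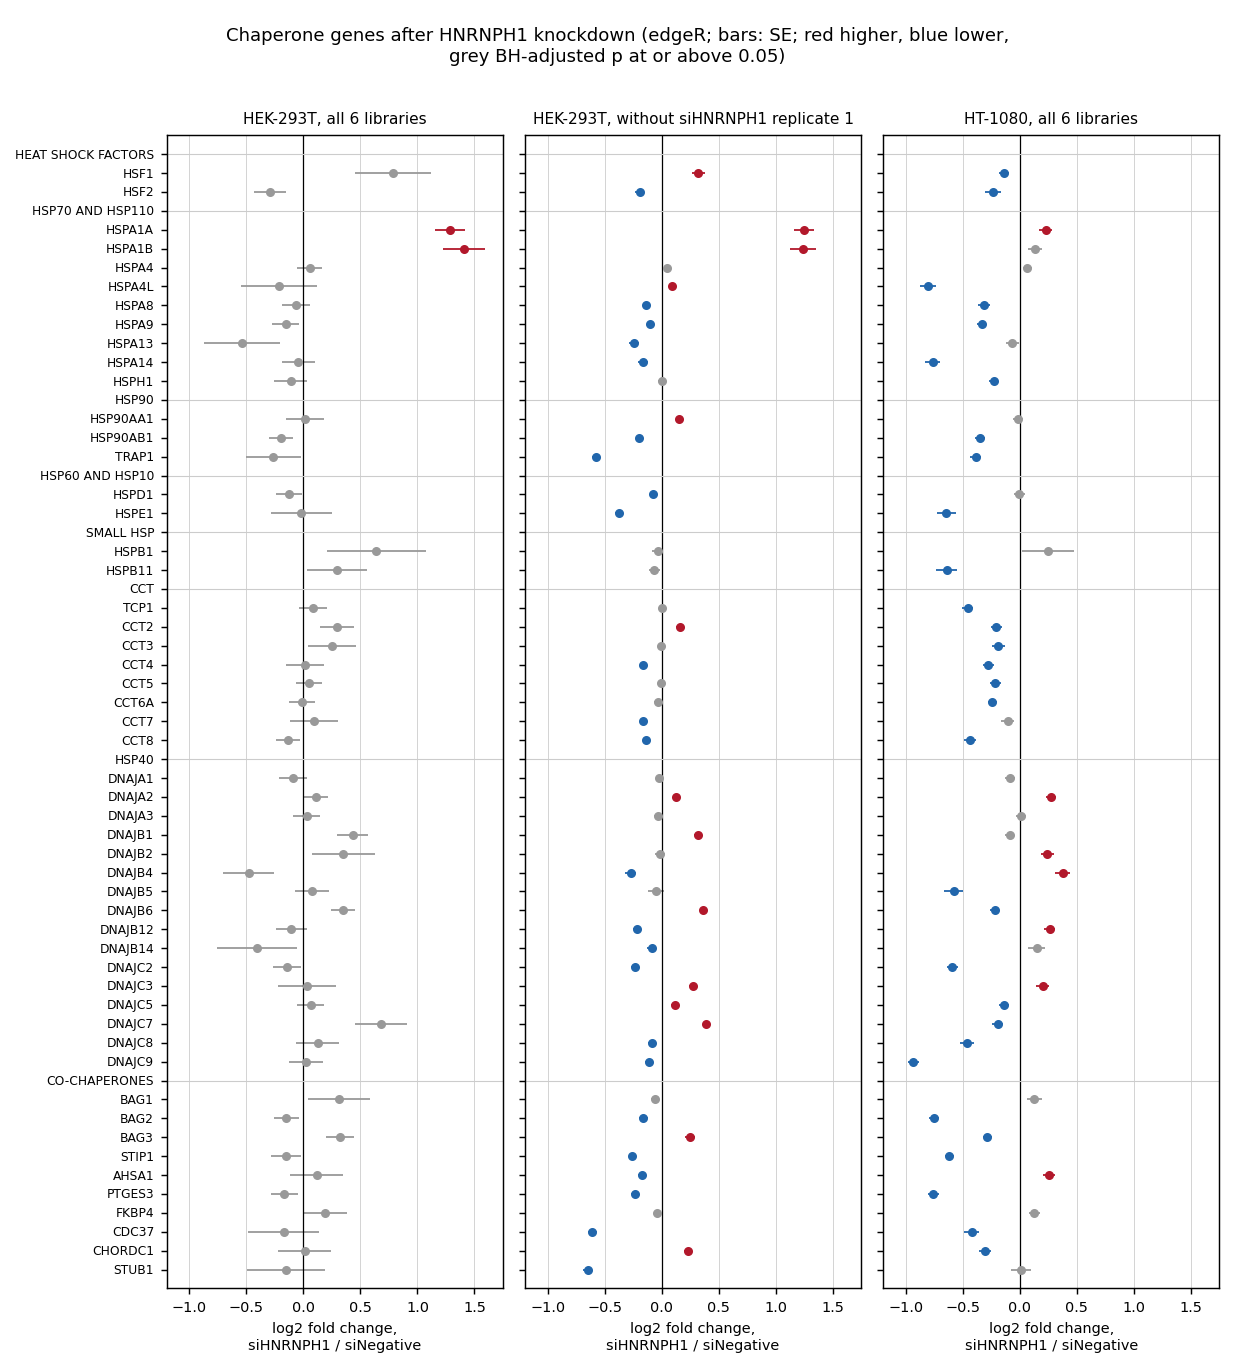
Log2 fold change (horizontal axis, siHNRNPH1 over siNegative) of 52 chaperone genes by family, with points at the edgeR estimate and bars of 1 SE, for HEK-293T with all libraries, HEK-293T without siHNRNPH1 replicate 1, and HT-1080. HSPA1A and HSPA1B are the only genes called in the first panel (red), 38 are called in each of the others, and most of those in HT-1080 are blue (31 lower).

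HSF1, the master activator of the heat shock response, was at 52.9, 53.1 and 49.7 CPM in HEK-293T siNegative and at 136, 72.4 and 62.4 CPM in siHNRNPH1. All 3 knockdown libraries were above the control range, and replicate 1 was far above the others. The log2 fold change was 0.79 (SE 0.333, edgeR BH-adjusted p = 0.2), and without replicate 1 it was 0.32 (SE 0.0557) and passed the test. HT-1080 libraries had 89.1, 93.8 and 90.4 CPM against 85.9, 88.1 and 85.7 CPM, groups that did not overlap by a narrow margin. HSF1 fell there by 0.14 (SE 0.0443, edgeR BH-adjusted p = 0.0175). HSF2, a related factor that can pair with HSF1, was at 58.1, 56.4 and 55.9 CPM in HEK-293T siNegative and 38.5, 49.2 and 54.3 CPM in siHNRNPH1 (log2 fold change -0.29, SE 0.142, edgeR BH-adjusted p = 0.25), and the value of -0.19 without replicate 1 passed. In HT-1080 its values were 13.9, 14.3 and 14.3 CPM against 11.9, 13.2 and 12.8 CPM, and it fell by 0.24 (SE 0.0689, edgeR BH-adjusted p = 0.0124). Neither factor passed in HT-1080 with library size alone, in the fit of all 12 libraries or without siHNRNPH1 replicate 1, and HSF1 did not without siHNRNPH1 replicate 3.

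HSPA1A and HSPA1B encode the stress-inducible cytosolic HSP70, in proteins that are all but identical. HSPA1B was at 823, 821 and 713 CPM in HEK-293T siNegative and at 2476, 2097 and 1764 CPM in siHNRNPH1. Every knockdown library was at least 2.25 times the siNegative mean, and the mean was 2.69 times it. The log2 fold change was 1.41 (SE 0.183, edgeR BH-adjusted p = 0.0124). HSPA1A had 3.95, 4.31 and 3.68 CPM against 9.97, 10.6 and 9.07 CPM, with no overlap and a rise of 1.29 (SE 0.133, edgeR BH-adjusted p = 0.00745). Here replicate 1 lay with the others: without it the values were 1.24 for HSPA1B and 1.25 for HSPA1A, and both passed. Leaving out any 1 siNegative library ended both calls, with edgeR BH-adjusted p up to 0.076 for HSPA1A and 0.0972 for HSPA1B. Leaving out siHNRNPH1 replicate 2 ended that of HSPA1B. Few genes of any kind were called in these fits: at most 0.0976% without a siNegative library and 1.2% without siHNRNPH1 replicate 2. A fit with the replicate number as a term also ended both calls, and it called 0% of all genes. Log2 fold changes of HSPA1A and HSPA1B ran from 1.23 to 1.41 and from 1.24 to 1.53 over all settings run. Both ranges include a fit of the 2 genes summed, which gave 1.41, the upper end of the HSPA1A range. Adjusted p from edgeR and DESeq2 over those settings began at 3.38e-15 for HSPA1A and 2.66e-10 for HSPA1B.

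In HT-1080, HSPA1A was at 45.7, 40.4 and 44.5 CPM in siNegative and at 52.8, 55.5 and 51.9 CPM in siHNRNPH1. The groups did not overlap, and HSPA1A rose by 0.23 (SE 0.057, edgeR BH-adjusted p = 0.00579). That call was lost in the fit of all 12 libraries (edgeR adjusted p = 0.15, the highest of a range that began at 0.000529). HSPA1B had 59.5, 69.9 and 65.3 CPM against 72.8, 75.6 and 75.4 CPM, again without overlap, but did not pass the test (log2 fold change 0.13, SE 0.0629, edgeR BH-adjusted p = 0.0897). Without siNegative replicate 2 its value was 0.19 and passed. Reads of these near-identical genes are divided between them by RSEM, so the division is uncertain. HSPA1B received 99.5% ± 0.0231 (SD, n = 3) of the pair's counts in HEK-293T siNegative and 99.5% ± 0.061 in siHNRNPH1, and in HT-1080 59.8% ± 3.42 and 58.3% ± 0.832. The sum of the pair does not depend on the division. It was 789.7 ± 63.2 CPM in HEK-293T siNegative and 2122 ± 357 CPM in siHNRNPH1, and 108.4 ± 2.78 and 128.0 ± 2.81 CPM in HT-1080. As 1 feature the pair rose in HEK-293T by 1.41 (SE 0.183, edgeR BH-adjusted p = 0.0123), and by 1.24 without replicate 1. The summed pair also rose in HT-1080, by 0.17 (SE 0.0434, edgeR BH-adjusted p = 0.00611).

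**Figure D2:**
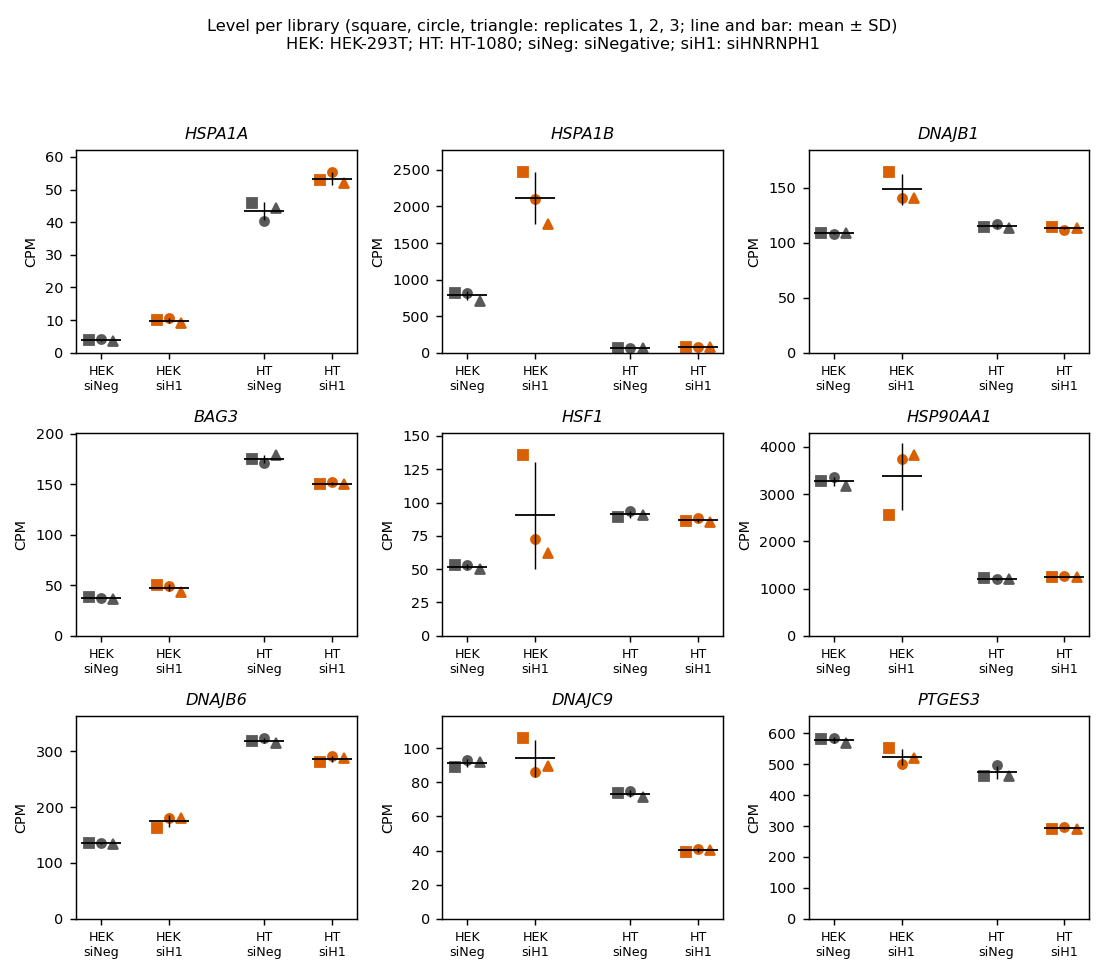
Level per library (vertical axis, CPM, from 0) of 9 chaperone genes in the 4 groups, with 1 symbol per library, the mean as a line and the SD as a bar. HSPA1A and HSPA1B are higher in every HEK-293T siHNRNPH1 library than in any siNegative library, HSF1 and HSP90AA1 show replicate 1 (square) away from the other replicates, and DNAJC9 and PTGES3 are lower in every HT-1080 siHNRNPH1 library.

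The constitutive HSP70 genes HSPA8 and HSPA9 fell in HT-1080 and did not pass the test in HEK-293T with all libraries. HSPA8, the main constitutive cytosolic HSP70, was at 2937, 2965 and 2909 CPM in HEK-293T siNegative and 2987, 2734 and 2837 CPM in siHNRNPH1. Its groups overlapped (log2 fold change -0.066, SE 0.119, edgeR BH-adjusted p = 0.766), and without replicate 1 the value was -0.13, which passed. HT-1080 libraries held 2178, 2305 and 2167 CPM against 1861, 1892 and 1850 CPM, clearly apart, and HSPA8 fell by 0.32 (SE 0.0489, edgeR BH-adjusted p = 0.000307). HSPA9, the mitochondrial HSP70, had 685, 705 and 683 CPM against 556, 664 and 676 CPM in HEK-293T, where every knockdown library was lower but the test was not passed (log2 fold change -0.16, SE 0.117, edgeR BH-adjusted p = 0.442). Without replicate 1 the value was -0.10, which passed. HSPA9 fell in HT-1080 by 0.34 (SE 0.041, edgeR BH-adjusted p = 6.21e-05), from 461, 469 and 463 CPM to 387, 390 and 381 CPM. HSPH1, an HSP110 protein that resets HSP70, was at 304, 309 and 300.1 CPM and then 229.8, 311 and 322 CPM in HEK-293T (log2 fold change -0.11, SE 0.144, edgeR BH-adjusted p = 0.661). Replicate 1 was below the controls and the others above them, and without it the value was -0.00072, which did not pass. In HT-1080 HSPH1 fell by 0.23 (SE 0.0429, edgeR BH-adjusted p = 0.000977), from 237.8, 224 and 240.2 CPM to 213, 209 and 204 CPM. Of 9 HSP70 and HSP110 genes, 1 rose and 5 fell in HT-1080 (32.7% and 32.6% of all genes), the others that fell being HSPA4L (by 0.81) and HSPA14 (by 0.77). Without the HSPA1 pair, the other 7 genes summed to 3330.1 ± 66.2 CPM under siNegative and 2882 ± 30.7 CPM under siHNRNPH1 in HT-1080 (SD, n = 3), and to 4687 ± 59.1 and 4512 ± 128 CPM in HEK-293T, where the groups overlapped.

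Among the HSP90 genes, HSP90AA1, the stress-responsive cytosolic form, was at 3270.2, 3353 and 3179.9 CPM in HEK-293T siNegative and 2550.0, 3736 and 3836 CPM in siHNRNPH1. Replicate 1 was below the control range and the other replicates above it, so the log2 fold change of 0.013 (SE 0.165, edgeR BH-adjusted p = 0.968) averages values on both sides. Without replicate 1 it was 0.16 (SE 0.028), which passed. HT-1080 gave 1217, 1197 and 1193 CPM against 1242, 1255 and 1243 CPM (log2 fold change -0.016, SE 0.0421, edgeR BH-adjusted p = 0.762). The sign there turned, to 0.053, with library size alone. HSP90AB1, the constitutive cytosolic form, had 2370, 2403 and 2348 CPM against 2019, 2133 and 2179 CPM in HEK-293T, lower in every knockdown library but not past the test (log2 fold change -0.20, SE 0.107, edgeR BH-adjusted p = 0.305). Without replicate 1 the value was also -0.20, and it passed. HSP90AB1 fell in HT-1080 by 0.35 (SE 0.045, edgeR BH-adjusted p = 8.43e-05), from 1591, 1623 and 1614 CPM to 1352, 1326 and 1289 CPM. TRAP1, the mitochondrial HSP90, was at 253, 262 and 258 CPM in HEK-293T siNegative and 291, 186 and 173 CPM in siHNRNPH1. Again replicate 1 was on the other side of the controls, with a log2 fold change of -0.26 (SE 0.244, edgeR BH-adjusted p = 0.54) and of -0.58 (SE 0.0317) without it, which passed. TRAP1 fell in HT-1080 by 0.39 (SE 0.0469, edgeR BH-adjusted p = 5.84e-05), from 109.8, 117 and 110.5 CPM to 88.4, 89.9 and 92.4 CPM.

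HSPD1, the mitochondrial HSP60, was at 1714, 1740 and 1698 CPM in HEK-293T siNegative and 1414, 1656 and 1739 CPM in siHNRNPH1, with overlap (log2 fold change -0.13, SE 0.117, edgeR BH-adjusted p = 0.534), and the value of -0.074 without replicate 1 passed. HT-1080 had 416, 435 and 406 CPM against 445, 432 and 435 CPM, also with overlap (log2 fold change -0.0049, SE 0.046, edgeR BH-adjusted p = 0.932). Its lid HSPE1 was at 202, 194 and 194 CPM and then 272, 153 and 162 CPM in HEK-293T, with replicate 1 above and the others below the controls (log2 fold change -0.018, SE 0.266, edgeR BH-adjusted p = 0.973). Without replicate 1 the value was -0.37 (SE 0.0326), which passed. HSPE1 fell in HT-1080 by 0.64 (SE 0.0835, edgeR BH-adjusted p = 9.2e-05), from 89.3, 107.9 and 85.9 CPM to 62.5, 65.1 and 62.2 CPM. The difference between these partners in HT-1080 was not tested. HSPB1 (HSP27), a small heat shock protein that holds unfolded clients, was at 26.5, 25.1 and 24.6 CPM in HEK-293T siNegative and 67.5, 27.2 and 24.3 CPM in siHNRNPH1. Replicate 1 alone was high (log2 fold change 0.64, SE 0.434, edgeR BH-adjusted p = 0.408), and without it the value was -0.037 (SE 0.0503), which did not pass. In HT-1080 HSPB1 was low, at 0.696, 0.664 and 0.727 CPM against 0.993, 0.735 and 0.878 CPM (log2 fold change 0.25, SE 0.225, edgeR BH-adjusted p = 0.38). HSPB11, listed with the small heat shock proteins by name, fell in HT-1080 by 0.64 (SE 0.0919, edgeR BH-adjusted p = 0.000178).

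CCT is a ring of 8 different subunits, each from its own gene. TCP1, the subunit with the smallest adjusted p in HT-1080, was at 332, 350.1 and 334 CPM under siNegative and 256, 262 and 257 CPM under siHNRNPH1. The groups did not overlap, and TCP1 fell by 0.46 (SE 0.0439, edgeR BH-adjusted p = 1.11e-05). In HEK-293T it was at 651, 659 and 657 CPM against 753, 673 and 695 CPM, without overlap and in the other direction, but not past the test (log2 fold change 0.085, SE 0.124, edgeR BH-adjusted p = 0.705), nor without replicate 1 (0.0038). CCT8 (-0.44), CCT4 (-0.28), CCT6A (-0.24), CCT5 (-0.21), CCT2 (-0.21) and CCT3 (-0.19) also fell in HT-1080, and CCT7 did not pass (-0.11, SE 0.0548, edgeR BH-adjusted p = 0.11). Of all HT-1080 genes, 32.6% were called lower. With library size alone 6 of 8 subunits were called lower, all but CCT3 and CCT7, where 65.2% of all genes were called either way. The fit of all 12 libraries called 3, TCP1, CCT6A and CCT8, where 29.3% of all genes were called. Without siNegative replicate 2 all 8 were called lower, where 70.4% of all genes were called either way. The 8 genes summed to 3408, 3660 and 3402 CPM under siNegative and 3071, 3082 and 3049 CPM under siHNRNPH1 in HT-1080. In HEK-293T no subunit passed with all libraries, none at an unadjusted p under 0.05 and none by DESeq2, and the sum was 5041, 5062 and 5021 CPM against 6226, 5031 and 5144 CPM. Replicate 1 gave that high sum; without it, CCT2 rose by 0.16 and CCT4, CCT7 and CCT8 fell by 0.13 to 0.16.

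**Figure D3:**
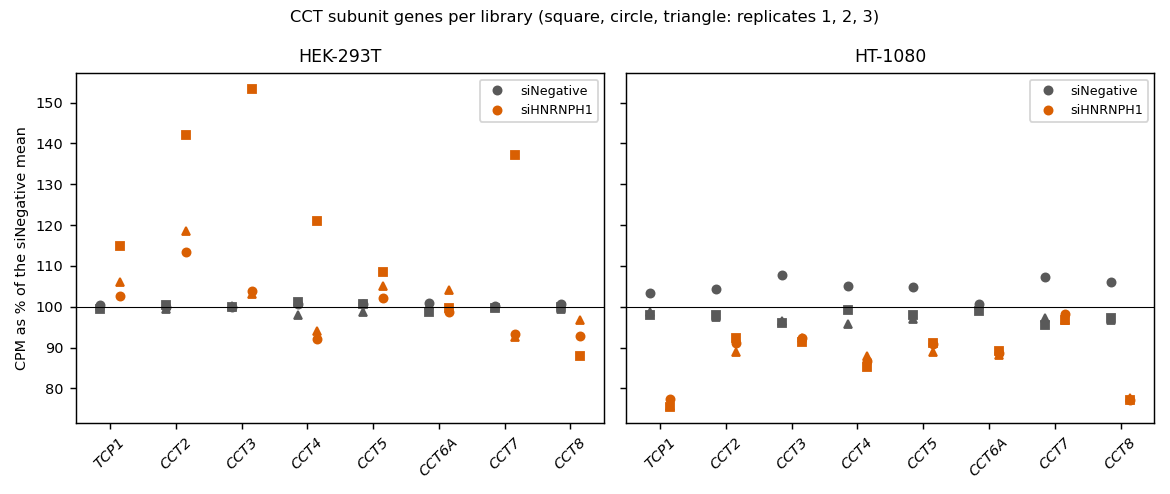
Level of each CCT subunit gene per library as a percentage of its siNegative mean (vertical axis, not starting at 0), with 1 symbol per library, in HEK-293T and HT-1080. In HT-1080 the siHNRNPH1 libraries of TCP1 and CCT8 lie well below the siNegative libraries and those of CCT7 among them, and in HEK-293T replicate 1 (square) is the highest library for most subunits.

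HSP40 proteins bring clients to HSP70 and start its ATPase. DNAJB1, the heat-inducible HSP40 of the cytosol, was at 109.0, 107.8 and 108.6 CPM in HEK-293T siNegative and 165, 141 and 140.4 CPM in siHNRNPH1. Every knockdown library was at least 1.29 times the control mean. The log2 fold change was 0.43 (SE 0.137, edgeR BH-adjusted p = 0.107), and without replicate 1 it was 0.32 (SE 0.0295), which passed. HT-1080 had 114, 117 and 113 CPM against 114, 112 and 113 CPM, with overlap (log2 fold change -0.09, SE 0.0403, edgeR BH-adjusted p = 0.0753). DNAJB6, an HSP40 known for holding back polyglutamine aggregation, was at 135, 136 and 134 CPM in HEK-293T siNegative and 163, 181 and 181 CPM in siHNRNPH1. Here too all knockdown libraries were higher (log2 fold change 0.34, SE 0.106, edgeR BH-adjusted p = 0.101), and the value of 0.36 (SE 0.0286) without replicate 1 passed. In HT-1080 DNAJB6 fell by 0.22 (SE 0.0415, edgeR BH-adjusted p = 0.001), from 319, 324 and 314 CPM to 281, 291 and 288 CPM. DNAJC9, an HSP40 that also binds histones H3 and H4, was at 88.9, 93.1 and 91.9 CPM in HEK-293T siNegative and 106, 86.1 and 89.9 CPM in siHNRNPH1 (log2 fold change 0.022, SE 0.147, edgeR BH-adjusted p = 0.941), and the value of -0.11 without replicate 1 passed. DNAJC9 fell the most of all members in HT-1080, by 0.93 (SE 0.0488, edgeR BH-adjusted p = 2.02e-07), from 73.8, 74.98 and 71.1 CPM to 38.9, 41.1 and 40.6 CPM. Of 16 HSP40 genes tested in HT-1080, 5 rose (DNAJA2, DNAJB2, DNAJB4, DNAJB12 and DNAJC3, by 0.20 to 0.37) and 7 fell, beside the 32.7% and 32.6% of all genes. The others that fell were DNAJC2, DNAJB5, DNAJC8, DNAJC7 and DNAJC5, by 0.14 to 0.59.

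Of 10 co-chaperones, 6 fell and 1 rose in HT-1080, where 32.6% of all genes were called lower and 32.7% higher. BAG2, a BAG protein that restrains the ligase STUB1, was at 67.0, 64.8 and 66.8 CPM in HT-1080 siNegative and 41.3, 40.6 and 41.2 CPM in siHNRNPH1. It fell by 0.76 (SE 0.0435, edgeR BH-adjusted p = 3.68e-07). In HEK-293T BAG2 had 37.2, 39.0 and 38.1 CPM against 34.0, 34.6 and 36.4 CPM, all lower but not past the test (log2 fold change -0.15, SE 0.106, edgeR BH-adjusted p = 0.425), and the value of -0.16 without replicate 1 passed. BAG3, a stress-induced BAG protein that links HSP70 to autophagy, was at 37.9, 37.5 and 36.8 CPM in HEK-293T siNegative and 49.7, 49.1 and 43.3 CPM in siHNRNPH1. All 3 knockdown libraries were higher (log2 fold change 0.32, SE 0.123, edgeR BH-adjusted p = 0.168), and the value of 0.25 (SE 0.0444) without replicate 1 passed. BAG3 fell in HT-1080 by 0.28 (SE 0.0391, edgeR BH-adjusted p = 0.000137), from 175.2, 170.8 and 179 CPM to 149.9, 152 and 149.7 CPM. STUB1 (CHIP), the ubiquitin ligase for chaperone-bound clients, was at 99.5, 98.7 and 100.2 CPM in HEK-293T siNegative and 138, 69.5 and 62.3 CPM in siHNRNPH1. Replicate 1 was above and the others far below the controls (log2 fold change -0.15, SE 0.343, edgeR BH-adjusted p = 0.813). Without it STUB1 fell by 0.65 (SE 0.0385), the largest fall among the members in that fit. HT-1080 had 68.7, 85.3 and 68.0 CPM against 74.7, 78.6 and 80.9 CPM, with overlap (log2 fold change 0.0079, SE 0.0869, edgeR BH-adjusted p = 0.942). Without siNegative replicate 2, the highest of these libraries, STUB1 rose by 0.12.

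The HSP90 co-chaperones split in HT-1080. PTGES3 (p23, which holds the closed state of HSP90) fell by 0.76, STIP1 (HOP, which joins HSP70 to HSP90) by 0.62, CDC37 (which brings kinases) by 0.42 and CHORDC1 by 0.31. AHSA1, the activator of the HSP90 ATPase, rose by 0.25 (SE 0.0545, edgeR BH-adjusted p = 0.00236), and the immunophilin FKBP4 did not pass (0.13, SE 0.0521, edgeR BH-adjusted p = 0.0535). In HEK-293T none of these 6 passed with all libraries, at an unadjusted p under 0.05 the 10 co-chaperones gave 1, and DESeq2 gave none. Without replicate 1, CDC37 fell by 0.61, STIP1 by 0.26, PTGES3 by 0.24 and AHSA1 by 0.18, and CHORDC1 rose by 0.23, while FKBP4 did not pass. Of 16 members taken from textbooks as HSF1 targets, 2 were called in HEK-293T, the HSPA1 pair (10% of all genes), and 12 without replicate 1, 7 higher and 5 lower (61.8% of all genes). In HT-1080 2 rose and 7 fell (65.3% of all genes were called).

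For 39 of the 52 members, HEK-293T siHNRNPH1 replicates 2 and 3 both lay outside the siNegative range on 1 side. Replicate 1 lay outside on that same side for 21 of the 39, on the opposite side for 16 and within the range for 2. STUB1, CDC37, TRAP1, HSPE1, AHSA1, HSP90AA1, CHORDC1 and HSPA4L were among the 16. The log2 ratio of replicate 1 to the mean of the other replicates ran from -1.40 to 1.39 with a median of 0.12, and it reached 1.5-fold either way for 17 members. These counts were made for the members alone. Without the share over all genes beside them, they describe this library and are no result particular to chaperones.

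Whether the siRNA acted differently in the lines was tested as an interaction over all 12 libraries. It was called for 18 of 52 members, 1 with the HT-1080 value more positive (DNAJB4) and 17 with it more negative, where 19% of 21276 genes were called (8.13% more positive and 10.8% more negative). The median difference, HT-1080 minus HEK-293T, was -0.34 over the members and -0.069 over all genes. With library size alone the median over all genes moved to 0.041, and 18 members were called, 17 of them shared and 16 more negative. The differences come from this joint fit and its own scaling, so they depart slightly from the subtraction of the single-line values. HSPA1B differed by -1.35 (SE 0.212, edgeR BH-adjusted p = 0.00144) and HSPA1A by -1.13 (SE 0.148, edgeR BH-adjusted p = 0.000446), and as 1 feature the pair differed by -1.31 (SE 0.204, edgeR BH-adjusted p = 0.00134). DNAJC9 differed by -1.03 (SE 0.166, edgeR BH-adjusted p = 0.00161), BAG2 by -0.68 (SE 0.107, edgeR BH-adjusted p = 0.00138) and DNAJB6 by -0.64 (SE 0.101, edgeR BH-adjusted p = 0.00139). Leaving out any 1 siNegative or HT-1080 library gave 9 to 11 calls, all more negative, where 11.9% to 15.5% of all genes were called. Without HEK-293T replicate 1, 37 members were called, 5 more positive and 32 more negative, where 49% of genes were called. HSF1 missed the threshold with all libraries (-1.02, SE 0.371, edgeR BH-adjusted p = 0.082), and without replicate 1 its difference was -0.51 and passed.

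With all libraries, 1 of 52 members, HSPA1A, was called in both lines, higher in both, where 6.89% of the 15010 genes tested in both lines were called in both and 5.42% in the same direction. Without HEK-293T replicate 1, 30 of 52 members were called in both lines, where 46.9% of genes were. Of these, 19 moved the same way (31.7% of all genes), 3 higher (HSPA1A, DNAJA2 and DNAJC3) and 16 lower, among them HSPA8, HSPA9, HSP90AB1, TRAP1, HSPE1, PTGES3, STIP1, CDC37, BAG2 and DNAJC9. The other 11 moved in opposite directions (15.2% of all genes). HSF1, BAG3, DNAJB6, DNAJC5, DNAJC7, CCT2, CHORDC1 and HSPA4L were higher in HEK-293T and lower in HT-1080, and AHSA1, DNAJB4 and DNAJB12 were the reverse.

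**Figure D4:**
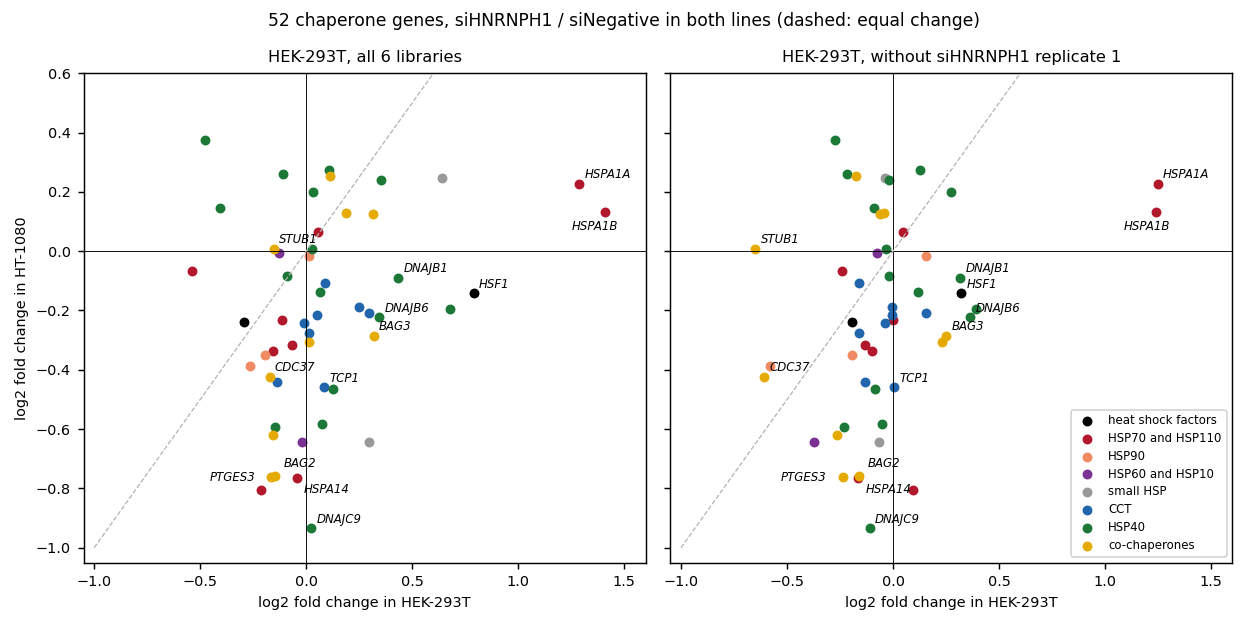
Log2 fold change (siHNRNPH1 over siNegative) of 52 chaperone genes in HEK-293T (horizontal axis) and HT-1080 (vertical axis), coloured by family, with all HEK-293T libraries (left) and without siHNRNPH1 replicate 1 (right); the dashed line marks equal change. HSPA1A and HSPA1B stand alone at the right of both panels, and DNAJC9, PTGES3, BAG2 and HSPA14 lie lowest among the labelled genes in HT-1080.

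Because HNRNPH1 regulates splicing, the share of each transcript within its gene was compared as well. With limma diffSplice (Simes p, BH-adjusted p under 0.05), usage was called for 6 members in HEK-293T (CCT3, DNAJB12, TRAP1, DNAJC2, DNAJB2 and DNAJB5), where 9.58% of 13014 genes were called. In HT-1080 it was called for 3 (HSPH1, DNAJB14 and DNAJC2), where 21.3% of 10780 genes were called. DNAJC2 was called in both, with a different first transcript in each line. Of the members, HSPA1B, HSPA13, DNAJA4, DNAJC3 and BAG2 were not tested for usage in either line, nor HSPB1 and DNAJB5 in HT-1080. In simulated data many usage calls fell on unchanged genes, so these calls are weak evidence. DNAJB6 has a long nuclear and a short cytosolic protein form. Its transcript ENST00000262177.9 held 42.5%, 41.9% and 41.6% of the gene's counts in HEK-293T siNegative and 32.6%, 27.0% and 25.7% in siHNRNPH1. Transcript ENST00000429029.6 held 46.5%, 46.6% and 47.3% and then 63.9%, 60.2% and 63.2%. Neither pair of groups overlapped in HEK-293T, and the mean shares moved from 42.0% ± 0.452 to 28.4% ± 3.65 and from 46.8% ± 0.442 to 62.5% ± 1.98 (SD, n = 3, exact two-sided permutation p = 0.1 for both, the smallest 3 against 3 allows). The gene's usage was not called with all libraries (limma BH-adjusted p = 0.132) and was called without replicate 1. In HT-1080 the first share was 44.5%, 43.1% and 43.4% against 40.1%, 40.3% and 39.9% (exact permutation p = 0.1), and the second 40.6%, 46.1% and 40.9% against 42.2%, 43.8% and 41.6% (exact permutation p = 1). The HT-1080 usage of DNAJB6 was not called (limma BH-adjusted p = 0.271), and the difference between lines in these shares was not tested. Such shifts in HEK-293T were not particular to DNAJB6. Without overlap, the mean share moved from 62.7% to 44.3% for ENST00000444643.8 of DNAJB12 and from 14.4% to 32.6% for ENST00000336576.10 of DNAJB2. For ENST00000222005.7 of CDC37 it moved from 81.2% to 67.9%, also without overlap.

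**Figure D5:**
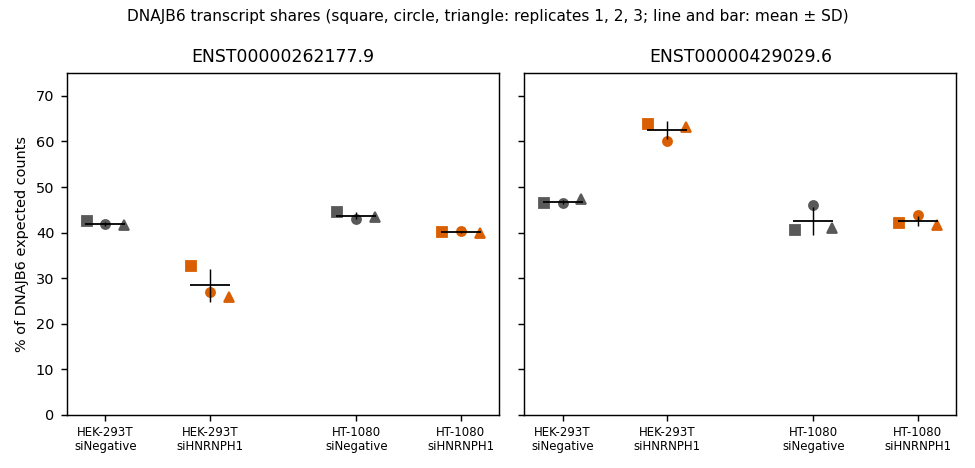
Share of the DNAJB6 expected counts (vertical axis, percent, from 0) held by 2 of its transcripts in each library, with the mean as a line and the SD as a bar. In HEK-293T the first transcript is lower (25.7% to 32.6%) and the second higher (60.2% to 63.9%) in all siHNRNPH1 libraries, and in HT-1080 the second overlaps between groups.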

How the data were processed

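The deposited short-read tables, 1 per line, hold expected counts per transcript that the authors estimated with RSEM, not scaled for depth. GRCh38.p13 is named in the submitters' processing notes. Aligner, annotation release and strandedness are not given in the sources used here. The 4 IsoSeq pools were not analysed here. Columns were matched to samples by the names in the labels. Transcript values were added up within each gene and then rounded to whole counts. After filterByExpr and TMM scaling, genes were tested with edgeR 4.0.16 (R 4.3.3; robust quasi-likelihood, two-sided, BH over all genes, threshold 0.05) per line on 6 libraries, with an interaction on 12. Transcript usage used voom and diffSplice in limma 3.58.1. CPM used library totals over all genes. Scaling (RLE, library size alone), no filter, DESeq2 1.42.0, a replicate term, a joint fit, a summed HSPA1 pair and leaving out each library were alternatives. Gene tests recovered 148 of 200 changes planted in simulated HEK-293T data and all 200 in HT-1080, with 5 and 16 calls on unchanged genes. The planted changes were larger than 2-fold, so recovery of changes as small as most of those called here was not tested. Some listed genes are not reported here. Members, lists and tests were chosen with earlier results of these data known. Levels were given per library for 16 listed members, the CCT subunit with the smallest HT-1080 adjusted p, members called in both lines, and the 5 smallest interaction p-values. Libraries of a group differed beyond sampling noise (chi-square per degree of freedom of 1.74 or more). Overlapping genes, pseudogenes and read-through transcripts may share reads with members.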

Additional observations from a re-analysis of the deposited data

Results flagged for a closer look

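By the interaction test, HEK-293T and HT-1080 responded differently (edgeR, BH-adjusted p under 0.05) in 18 members, given here as the log2 difference HT-1080 minus HEK-293T. In the HSP70 family HSPA1B differed by -1.35, HSPA1A by -1.13 and HSPA14 by -0.80, and in the small heat shock proteins HSPB11 by -1.02. HSP40 genes were DNAJC9 at -1.03, DNAJC7 at -0.95, DNAJB5 at -0.73, DNAJB6 at -0.64, DNAJB1 at -0.60 and DNAJC2 at -0.52, with DNAJB4 at 0.79 as the only positive difference. Co-chaperones were BAG2 at -0.68, BAG3 at -0.68, PTGES3 at -0.67 and STIP1 at -0.54. CCT subunits were TCP1 at -0.62, CCT2 at -0.58 and CCT8 at -0.37. All 18 were also called without HEK-293T siHNRNPH1 replicate 1, where 49% of all genes were called. Each of the 18 differences was smaller in size there, among them HSPB11 at -0.63, DNAJC7 at -0.64, DNAJB4 at 0.60 and CCT2 at -0.41. Adjusted p (edgeR or DESeq2) over the settings run reached 0.122 for HSPB11 and 0.419 for CCT8. The highest was 0.16 for DNAJC2, 0.155 for STIP1 and 0.145 for CCT2, and 0.0697 to 0.0984 for DNAJB1, DNAJB4, DNAJB5, TCP1 and DNAJC7. For DNAJB6 it was 0.05. It stayed under 0.05 for HSPA1A, HSPA1B, HSPA14, DNAJC9, BAG2, BAG3 and PTGES3. HEK-293T libraries were deeper than HT-1080 libraries, and a part of depth in these differences was not tested.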

How the results depend on the processing

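The HEK-293T count of 2 called members was 7 in the fit of all 12 libraries, 5 by DESeq2, 1 with HSPA1A and HSPA1B summed, and 0 to 38 with 1 library left out (38 without siHNRNPH1 replicate 1, 0 without any 1 of the siNegative libraries, where 2 had an unadjusted p under 0.05, and 1 without siHNRNPH1 replicate 2). The share of all HEK-293T genes called was 10%, and 9.99% with the HSPA1 pair summed. It was 21.4% in the fit of all 12 libraries and 19.9% by DESeq2. With 1 library left out it was 61.8% without siHNRNPH1 replicate 1, 1.2% without siHNRNPH1 replicate 2 and at most 0.0976% without a siNegative library. The HT-1080 count of 38 was 19 in the fit of all 12 libraries and 33 to 47 with 1 library left out (47 without siNegative replicate 2). Of all HT-1080 genes, 65.3% were called, 29.3% in the fit of all 12 libraries and 57.7% to 70.4% with 1 library left out. The interaction count of 18 was 10 with no filter and 9 to 37 with 1 library left out. It was 26 by DESeq2, and 9 to 11 without any 1 HT-1080 library or any 1 HEK-293T siNegative library. The interaction was called for 19% of all genes, for 8.26% with no filter and for 25.1% by DESeq2. Without any 1 HT-1080 or HEK-293T siNegative library that share was 11.9% to 15.5%, and without HEK-293T siHNRNPH1 replicate 1 it was 49%. Usage counts of 6 and 3 (9.58% and 21.3% of all genes) were 3 in HEK-293T with transcripts of at least 5% only, 1 to 25 there with 1 library left out (25 without siHNRNPH1 replicate 1, 1 without any 1 siNegative library) and 0 to 6 in HT-1080 (0 by limma without siHNRNPH1 replicate 3, 6 without siNegative replicate 2). The share of all genes called for usage in these other settings, and with the block below, is not given here. The usage counts there are thus no result particular to the members.

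With the replicate number as a block, HEK-293T gave 0 members by edgeR, HSPA1A and HSPA1B included (3 at an unadjusted p under 0.05), the interaction 9, HEK-293T usage 3 and HT-1080 40. Of all genes, the block called 0% in HEK-293T, 11.9% in the interaction and 65.1% in HT-1080. Deviations of same-numbered libraries correlated at 0.123, 0.119 and 0.035 in HEK-293T and 0.025, 0.115 and 0.060 in HT-1080. With values this low, the numbers were not taken to pair the libraries. Still, in HEK-293T each siNegative library correlated best with its own number. In HT-1080 siNegative replicates 1 and 2 did so too, and replicate 3 correlated equally (0.060) with siHNRNPH1 replicates 1 and 3. Whether the numbers mark pairs is thus not settled.

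Every setting was run for 31 members in HEK-293T and for all 52 in HT-1080, and none of the values listed here that turned sign was called with all libraries of its line. In HEK-293T, HSPA14 was 0.021 and HSPE1 0.053 in the fit of all 12 libraries, HSP90AA1 -0.0094 and DNAJC9 -0.0055 with no filter, and HSP90AA1 -0.0030 with the replicate block. In HT-1080, library size alone gave HSPA13 0.00055, HSP90AA1 0.053 and HSPD1 0.064. The fit of all 12 libraries gave DNAJA3 -0.0020 and STUB1 -0.0021, and no filter gave DNAJA3 -0.011 and STUB1 -0.011. With 1 library left out, HEK-293T values ran from -0.16 to 0.040 for HSPA14, -0.083 to 0.16 for HSP90AA1, -0.037 to 0.90 for HSPB1, -0.066 to 0.45 for HSPB11, -0.37 to 0.14 for HSPE1, -0.051 to 0.16 for DNAJB5, -0.11 to 0.10 for DNAJC9, -0.61 to 0.023 for CDC37 and -0.65 to 0.058 for STUB1. In HT-1080 they ran from -0.033 to 0.023 for HSPD1, -0.020 to 0.028 for DNAJA3 and -0.057 to 0.12 for STUB1. Without siHNRNPH1 replicate 1, 11 more HEK-293T members outside the 31 turned sign. Of these, HSPA4L (0.093), CCT4 (-0.16), CCT7 (-0.16), AHSA1 (-0.18) and DNAJC8 (-0.088) passed, and CCT3, CCT5, DNAJA3, DNAJB2, BAG1 and FKBP4, between -0.061 and -0.0058, did not. The cause of these shifts was not tested.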

Other observations

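Chaperone genes outside the 53 were read from lists of the same kind, and those named here were chosen after their values were seen. Among strongly heat-inducible genes, HSPA6, an HSP70 that is nearly silent without stress, rose in HEK-293T by 1.62 (edgeR BH-adjusted p = 0.0232). HSPA6 fell in HT-1080 by 1.33 (edgeR BH-adjusted p = 0.00126). Its levels were near the floor, with means of 0.34 and then 1.07 CPM in HEK-293T. In HT-1080 they were 1.88 and then 0.78 CPM, or 55.1 and 23.6 counts. HSPB8, the small heat shock protein that works with BAG3, rose in HEK-293T by 1.13 (edgeR BH-adjusted p = 0.0236). It was also low there, with means of 1.22 and then 2.71 CPM. HSPB8 also rose in HT-1080, by 0.56 (edgeR BH-adjusted p = 7.19e-05). The ubiquitin gene UBB did not pass in either line with all libraries, and CRYAB had too few counts to be tested. ST13 (HIP, which steadies HSP70 with its client) rose in HEK-293T by 1.09 (edgeR BH-adjusted p = 0.00719), and its HT-1080 rise was 0.51 (edgeR BH-adjusted p = 3e-06). Without HEK-293T replicate 1 the values were 1.39 for HSPA6 and 1.02 for HSPB8, and both passed, as did ST13. Of 15 further HSP90 and HSP70 partners, 2 rose and 5 fell in HT-1080.

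Prefoldin, which hands actin and tubulin to CCT, had 3 of 6 subunits lower in HT-1080 and the others not called: PFDN1 fell by 0.61, VBP1 by 0.47 and PFDN4 by 0.365. Of 10 mitochondrial partners, 3 rose in HT-1080, among them the protease LONP1 by 0.51, and 4 fell, among them GRPEL1, the exchange factor of HSPA9, by 0.56. Of 13 chaperones of the endoplasmic reticulum, 3 rose and 7 fell in HT-1080: SERPINH1, the collagen chaperone, rose by 0.66, and SDF2L1 fell by 0.73. DNAJB9 was the 1 gene of that list called in HEK-293T, where it fell by 0.54 (edgeR BH-adjusted p = 0.0455), and it fell in HT-1080 by 0.16 (edgeR BH-adjusted p = 0.018). These counts stand beside the 32.7% and 32.6% of all HT-1080 genes called higher and lower.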
